A study of Rattus norvegicus with 2 samples.

Results

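A list of 9 genes of epidermal transcription control and Notch signalling were examined in fetal rat skin: Klf4, Grhl3, Ovol1, Gata3, Tcfap2a, Notch1, Notch3, Jag1 and Hes1. A gene was taken from the arrays when the gene name of a non-control probe matched, leaving aside the endings _predicted and _mapped. This found 8 of the 9 names, with 1 probe each, among 18344 named genes on the array, of which 14788 were detected. No probe carried the name Grhl3. RefSeq lists Tfcp2l4 as an older name of Grhl3, and the probe with that older name is described beside the members and enters none of their counts.

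The E19 pool combined skin RNA of 3 Sprague Dawley rat fetal samples of day 18.5, and the E16 pool combined 4 of day 16.5. Both pools were hybridised together to 2 Agilent arrays with 45018 spots each, once with E19 in Cy5 and E16 in Cy3 and once with the dyes exchanged. RNA was extracted with a NucleoSpin column kit and amplified linearly before labelling, and no treatment separates the pools other than age. Each stage is a single RNA pool, so the stage difference has no replicate check and no test, and the number of arrays limits the precision. Values are log2 ratios of E19 over E16 on each array, or their mean ± SD over both arrays, where the SD measures technical spread alone. The call for a stage required at least 2-fold more signal in its pool on each of the arrays.

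Skin epidermis forms when a basal layer of dividing keratinocytes gives rise to spinous, granular and cornified cells that seal the body before birth. Klf4, Grhl3, Ovol1, Gata3 and Tcfap2a encode DNA-binding proteins that take part in this programme. Notch signalling passes between touching cells: a ligand such as Jag1 on one cell leads to cleavage of a Notch receptor on the next, and the freed receptor fragment enters the nucleus, joins the DNA-binding protein RBPJ and switches on genes of the Hes and Hey families. In epidermis this signal is known to promote the step from basal to spinous cell.

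The transcription factors were the members with the higher ratios. All 4 transcription factors measured under the rule had ratios above 0 on both arrays, with means from 0.72 to 1.46. Of the 4 Notch genes, only Jag1 was above 0 on both arrays, and their means ran from -0.76 to 0.23. For these counts of genes above 0, no share over all detected genes is given here. Klf4 and Ovol1 were called higher in E19, which is 2 of 8 members, beside 4.15% of all detected genes. None of the members was called higher in E16 (0 of 8), beside 3.75% of all detected genes, and calls in either direction made up 7.89%. The median ratio of the 8 members was 0.47, beside 0.02 over all detected genes. All 8 were well above background in both pools on both arrays, and none was saturated or marked as an outlier.

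**Figure D1:**
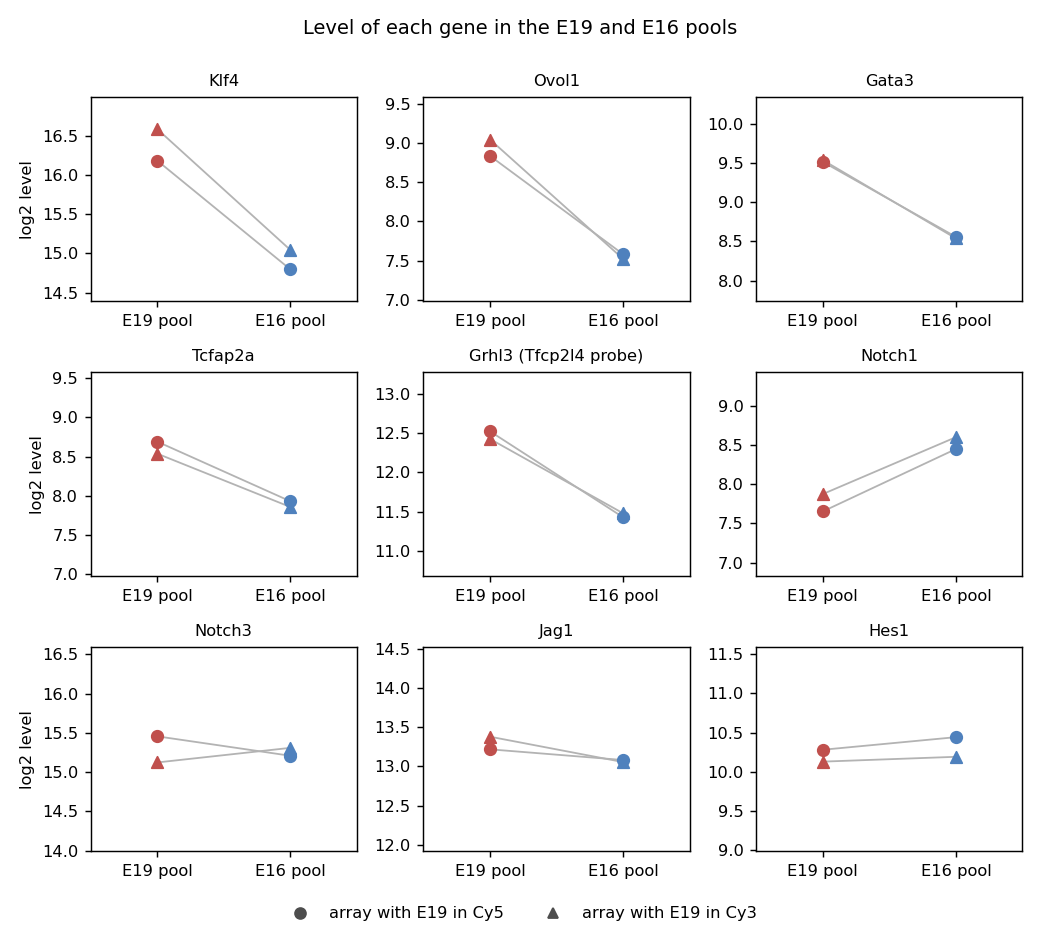
Normalised log2 level of each gene in the E19 pool (left) and the E16 pool (right), one panel per gene with its own axis of equal span; circles are the array with E19 in Cy5, triangles the array with E19 in Cy3, and grey lines join values of 1 array. The E19 points of Klf4, Ovol1, Gata3, Tcfap2a and the Tfcp2l4 probe lie above both E16 points, and those of Notch1 lie below both.

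Klf4 encodes a zinc finger protein that is required for the skin barrier in mice and is also active in several other epithelia. Its log2 level was 16.18 and 16.58 in the E19 pool (E19 in Cy5 and in Cy3, in that order throughout), against 14.80 and 15.04 in the E16 pool. The pools did not overlap, as was the case for 6 of the 8 members, beside 70.0% of all detected genes. The ratio was 1.39 and 1.54 on the arrays, a mean of 1.46 ± 0.11 or 2.76-fold higher in E19. Only 1.93% of detected genes had a higher mean ratio.

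Ovol1 encodes a zinc finger repressor that in mouse skin restrains the division of keratinocytes leaving the basal layer. Its log2 level was 8.83 and 9.04 in the E19 pool, against 7.58 and 7.52 in the E16 pool, without overlap. The ratio was 1.25 and 1.52, with a mean of 1.39 ± 0.19, or 2.61-fold higher in E19. Ovol1 was among the dimmer spots, at 3.19 times the local background in the E16 pool on the array with E19 in Cy5. Its mean was 1.71 with normexp at an offset of 0 and 1.55 without background subtraction. Feature Extraction's processed signals, which replace both the background correction and the loess step, gave 1.90 and 2.21, a mean of 2.06. The spike-in RNAs averaged 0.22, and centring each array on them lowers ratios by that much on average. It moved the median of all genes to -0.20, beside 0.02, left Klf4 past the limit at 1.12 and 1.37 and took Ovol1 just under it on 1 array, at 0.99 and 1.35.

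Gata3, whose protein acts in epidermal lipid synthesis and in the inner root sheath of the hair follicle, came close to the limit. Its log2 level was 9.51 and 9.54 in the E19 pool, against 8.56 and 8.54 in the E16 pool, the closest pairs of any member's arrays. The mean ratio was 0.98 ± 0.03, or 1.97-fold, with both arrays under the log2 limit of 1, at 0.9561 and 0.9976. Normexp at an offset of 0 in place of 50 carried it past 2-fold on both arrays, at 1.06 and 1.13. Centring on the spike-in RNAs lowered it to 0.69 and 0.83, and median centring in place of loess split it into 1.21 and 0.74. Gata3 also acts in T cells. In the T cell list the receptor chain Cd3g was higher in E19 (1.93 ± 0.08), and Cd3e and Cd4 were not detected in either pool.

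Tcfap2a, now named Tfap2a, encodes AP-2 alpha, a factor of early surface ectoderm and of keratinocytes. Its log2 level was 8.69 and 8.54 in the E19 pool, against 7.93 and 7.86 in the E16 pool. These did not overlap, and the mean ratio was 0.72 ± 0.06, or 1.65-fold. With Feature Extraction's processed signals it was 1.14 and 1.02, past 2-fold on both arrays. Centred on the spike-in RNAs it was 0.50 and 0.51.

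The Tfcp2l4 probe, read as Grhl3 through its synonym, gave log2 levels of 12.52 and 12.43 in the E19 pool, against 11.43 and 11.48 in the E16 pool. GRHL3 is known in mice for eyelid and neural tube closure and for switching on Tgm1, the transglutaminase of the cornified envelope. Its mean ratio was 1.02 ± 0.10, or 2.03-fold, split into 1.09 and 0.95. It therefore missed the limit on 1 array. Tgm1 itself was higher in E19 at 1.58 ± 0.14, among 12 of 14 suprabasal and cornified markers called that way (background 4.15%). A link between the Grhl3 and Tgm1 ratios was not tested.

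**Figure D2:**
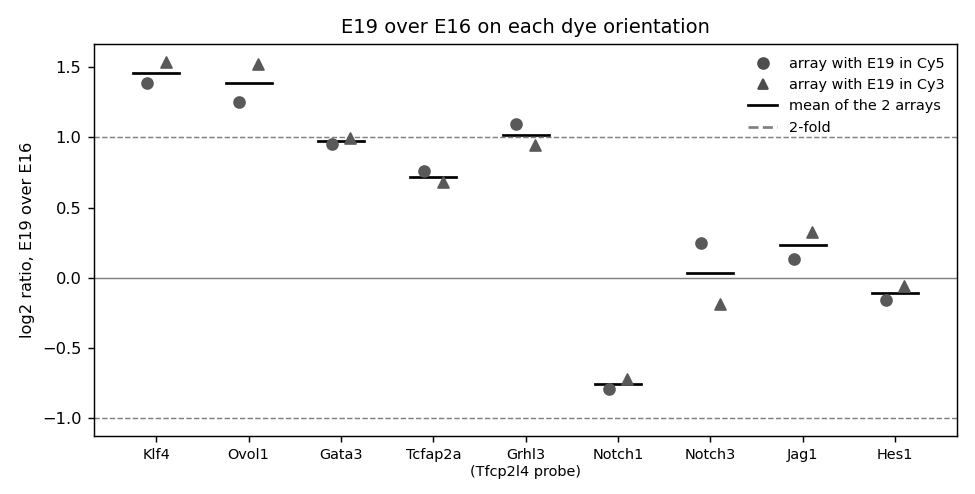
Log2 ratio of E19 over E16 for each gene, as circles where Cy5 labelled E19 and triangles where Cy3 did, with the mean of the 2 arrays as a bar and 2-fold as dashed lines. Klf4 and Ovol1 pass 2-fold on both arrays, Gata3 reaches 0.98 on average, Notch1 lies at -0.76, and the points of Notch3 fall on opposite sides of 0.

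Notch1, the main Notch receptor of the epidermis, was the member with the lowest ratio. Its log2 level was 7.65 and 7.87 in the E19 pool, against 8.45 and 8.60 in the E16 pool, without overlap. The ratio was -0.80 and -0.72, a mean of -0.76 ± 0.05, which is 1.69-fold higher in E16 and did not reach the limit. Only 6.62% of detected genes had a lower mean ratio. Notch1 was also dim in the E19 pool, at 4.44 and 3.71 times the local background. Its mean was -0.96 with normexp at an offset of 0 and -0.84 without background subtraction. With Feature Extraction's processed signals the arrays gave -1.06 and -0.94, past 2-fold on 1 array. The SD over the arrays does not include these shifts. In the authors' deposited table, where the arrays are combined, Notch1 was 2.0017-fold higher in E16, just past 2-fold.

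Notch3 encodes a receptor best known from the smooth muscle cells and pericytes of vessel walls and found in epidermis too. Its log2 level was 15.46 and 15.12 in the E19 pool, against 15.21 and 15.31 in the E16 pool. The pools overlapped, and the ratio took opposite signs on the 2 arrays, at 0.25 and -0.19, so its mean of 0.03 ± 0.31 was smaller than the spread. The difference between the dyes was wider still when each array was only centred on its median, at 1.03 and -0.96. Klf4, also bright, moved the same way under that centring, to 2.20 and 0.69, and was then not called.

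Jag1, a transmembrane ligand of the Notch receptors, had log2 levels of 13.22 and 13.38 in the E19 pool, against 13.08 and 13.06 in the E16 pool. The pools did not overlap, but the ratio was small, at 0.23 ± 0.13, or 1.17-fold. Centred on the spike-in RNAs it was 0.01. With median centring in place of loess the arrays took opposite signs, at 0.58 and -0.24.

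Hes1, a repressor switched on by Notch signalling in many tissues, had log2 levels of 10.28 and 10.13 in the E19 pool, against 10.44 and 10.19 in the E16 pool. The pools overlapped and the ratio was -0.11 ± 0.07. Both arrays gave values just below 0, at -0.16 and -0.06. With median centring in place of loess they took opposite signs, at 0.17 and -0.44.

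Promoter sequence is shown for Notch1, the receptor with the lowest ratio, and for Hes1, the Notch target with little difference between the pools, so that the presence of the letters of an RBPJ binding core can be compared. The windows hold the 250 bases before the RefSeq gene start in the GRCr8 build, Notch1 at chr3:29721614-29721863 and Hes1 at chr11:84213046-84213295, both on the minus strand and written 5′ to 3′. Capitals mark TGGGAA, which was searched on both strands.
Notch1: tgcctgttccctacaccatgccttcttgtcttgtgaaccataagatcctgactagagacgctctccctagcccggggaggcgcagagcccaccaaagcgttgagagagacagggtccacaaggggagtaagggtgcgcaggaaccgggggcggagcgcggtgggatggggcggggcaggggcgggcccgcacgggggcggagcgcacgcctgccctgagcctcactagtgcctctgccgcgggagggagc
Hes1: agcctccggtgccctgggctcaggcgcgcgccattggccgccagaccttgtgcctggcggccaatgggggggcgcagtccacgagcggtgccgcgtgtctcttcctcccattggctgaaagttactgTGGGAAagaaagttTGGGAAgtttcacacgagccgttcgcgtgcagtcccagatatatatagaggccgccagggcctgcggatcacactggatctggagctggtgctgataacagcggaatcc
Hes1 held 2 matches, both on the strand shown and 8 bases apart, starting 123 and 109 bases before the gene start. Notch1 held 0. Of 33469 windows of this length, 22.1% held at least 1 match and 2.71% held at least 2. Windows were given for 7 of the 9 genes, and Hes1 was the only 1 of the 7 with a match. Among the other Notch pathway genes 15 of 40 windows had one. The windows of Klf4 and Gata3, and some of the Notch pathway windows such as that of Dll3, lay inside the span of their gene. Those of Notch1 and Hes1 did not, so the counts mix unlike regions. A match of letters is not evidence of binding.

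The other genes of the Notch pathway, taken from a fixed list of 48, had ratios centred near 0. All 40 that had a probe were detected, and 0 were called higher in E19 (background 4.15%) and 2 higher in E16 (background 3.75%). Their median ratio was 0.10, beside 0.02 over all genes. The 2 called were Dll3, a divergent ligand that in mice acts inside the cell against Notch signalling (-1.33 ± 0.03), and Hes6, a Hes relative that in mice favours nerve cell formation (-1.15 ± 0.03). Hes6 had 2 detected probes, 1 of them past the limit.

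Among the receptors, Notch2 was at 0.18 ± 0.26 and Notch4, known from endothelium, at 0.06 ± 0.02. Of the ligands, Jag2 was at 0.37 ± 0.06, Dll1 at 0.12 ± 0.30 and Dll4 at 0.09 ± 0.01. Dlk1, an imprinted relative of the ligands, was at -0.46 ± 0.22. None of these receptors and ligands was called. Notch2 and Dll4 were dim, with mean log2 levels of 7.74 and 7.53 in E19 and 7.56 and 7.44 in E16, so their small ratios say little.

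Of the proteases that release the receptor fragment, none of those named here was called. The gamma-secretase subunits Psen2 (0.62 ± 0.35) and Ncstn (0.37 ± 0.21) and the sheddase Adam17 (0.44 ± 0.25) were above 0 on both arrays, whereas Adam10, the other sheddase, was at -0.07 ± 0.17. Dtx2, a ubiquitin ligase of the pathway, was at 0.55 ± 0.14. Targets of the Hey family had ratios close to 0, with Hey1 at 0.01 ± 0.13, Hey2 at -0.11 ± 0.09 and Heyl at -0.04 ± 0.03. Their probes were dim, with mean log2 levels from 7.51 to 7.85 in E19 and from 7.55 to 7.84 in E16. Such ratios do not show that these targets were unchanged. Hes5, another Notch target, was at 0.40 ± 0.03.

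**Figure D3:**
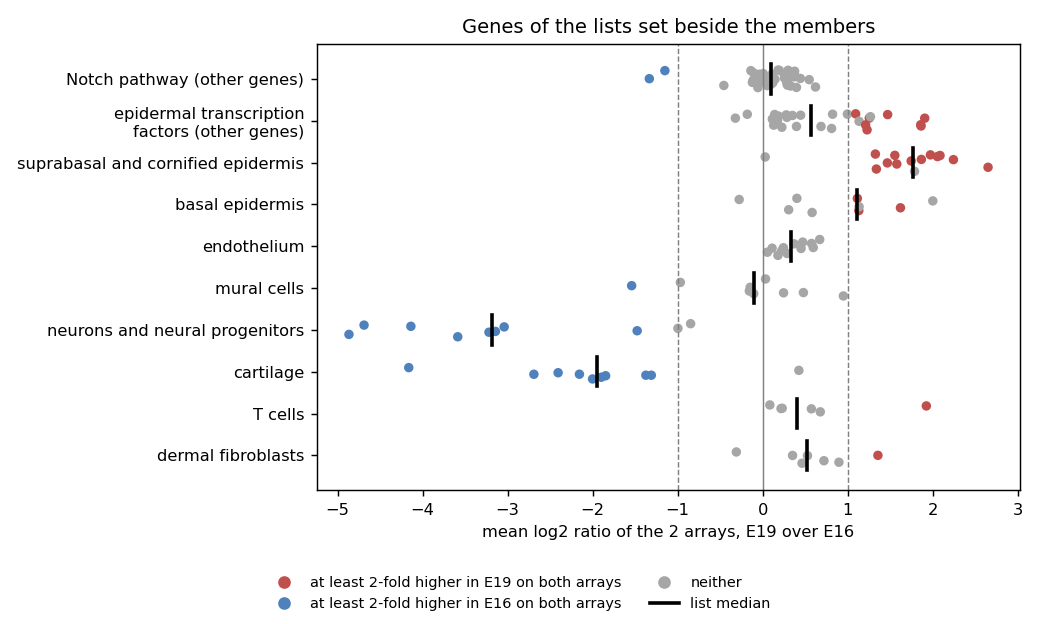
Mean log2 ratio of E19 over E16 for each detected gene (points) of the Notch pathway list, the epidermal transcription factor list and the marker lists, with list medians as bars and 2-fold as dashed lines; red and blue points were at least 2-fold higher in E19 or in E16 on both arrays. The Notch list centres on 0.10, other epidermal transcription factors on 0.57, suprabasal markers on 1.77 and neuronal markers on -3.18.

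The other epidermal transcription factors, a list of 34, had 28 detected members. Of these, 8 were called higher in E19 (background 4.15%) and 0 higher in E16 (background 3.75%), with a median of 0.57. Both arrays were above 0 for 25 of the 28, but no share over all detected genes is given here to set beside that count. Dlx3, Vdr, Elf5 and Ahr had probes that were not detected.

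Among those called were Prdm1, a repressor of granular keratinocytes and sebaceous glands (1.86 ± 0.10), and the ETS factor Ehf (1.86 ± 0.30). Cebpa, which limits keratinocyte division and is also a fat cell regulator, was at 1.47 ± 0.26. The POU factors Pou3f1 (1.26 ± 0.15) and Pou2f3 (1.09 ± 0.02) were also called, but the 2 detected probes of Pou2f3 averaged 0.54, so its dimmer probe did not pass the limit.

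Relatives of the members were among those called. Grhl1, a grainyhead factor like Grhl3, was higher in E19 at 1.23 ± 0.02, while Grhl2 was at 0.29 ± 0.12, with an E16 signal that cleared the background on 1 array alone. Tfap2c, which encodes AP-2 gamma, was higher in E19 at 1.21 ± 0.06, while Tfap2b was at -0.18 ± 0.02. Ovol2 was at 0.11 ± 0.12 and the Kruppel-like factor Klf5 was at 0.82 and 0.83 on the arrays, with 0.52 as the mean of its 2 detected probes. The AP-2 and Ovo families thus each held members with unlike ratios. Grhl2 was too dim, at mean log2 levels of 6.86 in E19 and 6.57 in E16, for its ratio to be set against that of Grhl1.

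Tp63, the master regulator of stratified epithelia, averaged 1.13 ± 0.50 but was split into 0.78 and 1.49 over the arrays, so it was not called. Hopx (1.27 ± 0.53) and Cebpb (0.997 ± 0.08) likewise passed the limit on 1 array only.

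Over the 2 log2 ratios, the fixed-list genes nearest to Klf4 were Ivl, which encodes the envelope protein involucrin (1.47 ± 0.01, distance 0.12), and Ovol1 (distance 0.13). The nearest to Ovol1 were Klf4 and Cebpa (distance 0.14). With 2 arrays this likeness is loose: 34 of all detected genes lay as near to Klf4 as Ivl or nearer.

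Markers of keratinocytes were set beside these ratios. Some genes of skin cell types were bright in both pools. Krt5 of basal cells had a mean log2 level of 16.68 in E19 and 15.57 in E16. Krt10 of suprabasal cells was at 18.42 in E19 and 16.55 in E16, and Col1a1 of fibroblasts at 17.22 and 16.70. Others on the epidermal lists were dimmer, such as basal Itga6 (8.47 in E19 and 7.89 in E16) and suprabasal Casp14 (10.19 and 8.10). Some genes of other tissues were bright too, above all in E16. The neuronal gene Dcx was at 11.55 in E19 and 14.69 in E16, and the cartilage gene Col2a1 at 11.34 and 14.04. Others on the neuronal and cartilage lists were dim in E19, such as Snap25 (7.09, against 10.31 in E16) and Cnmd (7.18, against 11.35). Of 14 detected suprabasal and cornified markers, 12 were called higher in E19 (background 4.15%), with a median of 1.77 and Klk5 lowest at 0.03 ± 0.04. Their summed linear level was 1061000 to 1225000 in the E19 pool and 219400 to 570800 in the E16 pool, over the 2 arrays. Of 9 detected basal markers, 3 were called higher in E19 (background 4.15%), with a median of 1.11 and summed levels of 570700 to 598800 in E19 and 182700 to 347600 in E16. The basal marker Dst was below 0 on both arrays, at -0.14 and -0.41, Krt15 took opposite signs, at 0.71 and -0.10, and Col17a1 was not detected. These sums include Krt10 and Krt14, which were saturated on at least 1 array. Their part in the ratios of the transcription factors was not tested. In bulk skin, more cells of a type and more RNA per cell cannot be told apart.

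Other cell types that use these genes also differed between the pools. Of 10 neuronal and neural progenitor markers, 8 were called higher in E16 (background 3.75%), with a median of -3.18 and summed levels of 23140 to 25140 in E19 and 113800 to 129400 in E16. Of 10 cartilage markers, 9 were called higher in E16 (background 3.75%), with a median of -1.95 and summed levels of 11580 to 13200 in E19 and 50950 to 52700 in E16. Their part in the ratios of Notch1, Dll3 and Hes6 was not tested.

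Endothelial markers had a median of 0.33 with 0 of 12 called, and summed levels of 59450 to 69630 in E19 and 51030 to 60420 in E16. Mural markers had a median of -0.11, and 1 of 9, the smooth muscle gene Tagln, was called higher in E16 (-1.54 ± 0.30, background 3.75%). The summed mural level was 43250 to 48930 in E19 and 51310 to 52210 in E16, beside a Notch3 ratio of 0.03. The 6 detected T cell markers had a median of 0.40, with only Cd3g called higher in E19 (1 of 6, background 4.15%), and summed levels of 2704 to 2723 in E19 and 1727 to 1745 in E16. Their part in the Gata3 ratio was not tested. Fibroblast markers had a median of 0.53, with 1 of 7 called higher in E19 (background 4.15%).

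**Figure D4:**
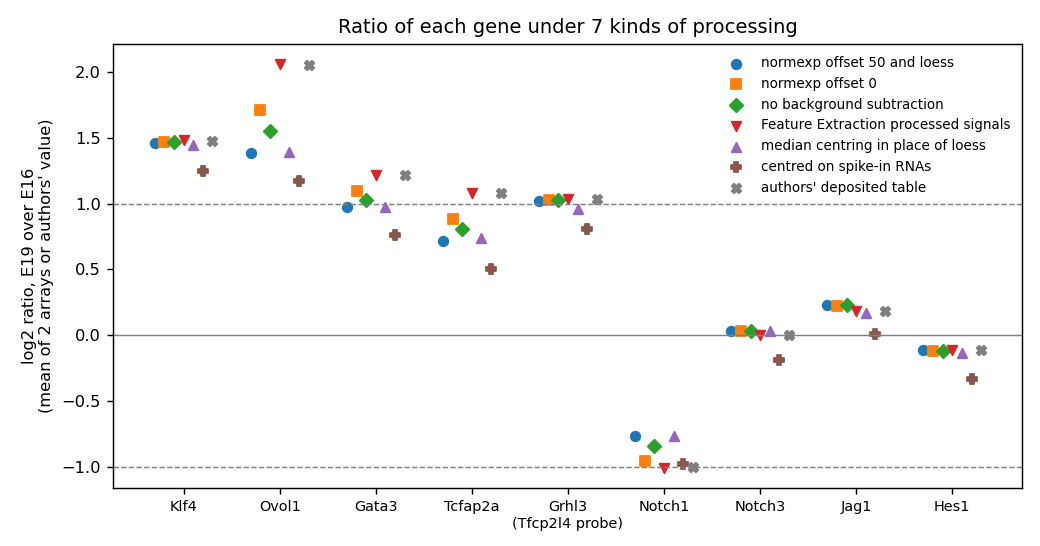
Log2 ratio of E19 over E16 of each gene under 7 kinds of processing, as the mean of the 2 arrays or the authors' combined value, with 2-fold as dashed lines. Klf4 lies between 1.25 and 1.48 in all of them, Ovol1 spans 1.17 to 2.06, and Notch3 spans -0.19 to 0.04.

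In the authors' deposited table, Ovol1 was 4.14-fold, Klf4 2.77-fold, Gata3 2.32-fold and Tcfap2a 2.12-fold higher in E19. That is 4 of 8 members past 2-fold, beside 8.11% of detected genes in that table. The Tfcp2l4 probe was 2.05-fold higher in E19 there. Notch1 was the single member past 2-fold towards E16, beside 6.76% of detected genes, and Jag1, Hes1 and Notch3 lay at 0.18, -0.11 and 0.0032 on the log2 scale. The table was made from the same 2 arrays and is no independent check.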

How the data were processed

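Skin RNA of 2 stages was measured on 2 dye-swapped Agilent arrays. Per the file headers, mean spot intensity, local median background intensity, processed intensity and a log10 ratio of Cy5 over Cy3 were written by Feature Extraction 9.5.1.1. A combined log10 ratio stands in the authors' deposited table, and how the arrays were combined is not given in the sources used here; 2 further columns of pool intensity in it were not used. It was read as E19 over E16 because it correlated at 0.90 with each array's ratio turned that way, across genes.

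From the uncorrected intensities, background was corrected by normexp (offset 50) and ratios were normalised by loess with control spots at weight 0, in limma 3.58.1 under R 4.3.3. Levels were taken per channel after Aquantile normalisation. Outlier spots were left out. A probe was detected when well above background for the same pool on both arrays, and the brightest detected probe stood for a gene. Per channel, 71.5% to 74.3% of spots cleared the background, and no more than 15 were saturated.

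Probes were named through RefSeq's GRCr8 gene table: 10735 of 41012 by accession, 5577 by symbol, 3730 by synonym, 3364 by the file's name, and 17606 had no gene name. Promoter sequences are RefSeq's. Background correction, loess and the 2-fold call were tested on simulated arrays, with changes placed in probes above the median brightness but below the brightest. Changes in dim or very bright probes, and the other steps, were not simulated. Members, lists and limits were chosen with earlier results of these data known. Genes named from the lists were those past the limit, up to 4 more with the largest ratios, and others chosen after their values were seen; some list genes are counted but not reported here by name. The 14 alternatives changed background, normalisation, probe filter, probe choice, fold limit and arrays used. Later steps used Python 3.11.15, pandas 2.3.3 and matplotlib 3.10.9.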

Additional observations from a re-analysis of the deposited data

How the results depend on the processing

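Over 14 alternatives, no member called at 2-fold changed sign. Of the ratios of the 8 members, 86 moved by less than the SD of the 2 arrays against 26 that moved by more. Many of the 86 were fixed in advance, so this count does not measure stability. Changing the probe filter, flagged spots, probe choice or fold limit could not alter the ratio of a member with 1 detected, unflagged probe. A single array always lies within that SD of the mean. Both outputs of Feature Extraction gave the same ratios. Notch3, not called, fell below 0 centred on spike-in RNAs (-0.19) and on the array with E19 in Cy3 alone (-0.19). Klf4 ranged from 1.25 to 1.54 and Ovol1 from 1.17 to 2.06. Members higher in E19 numbered 2, and became 3 at normexp offset 0, 4 with Feature Extraction's processed signals, its log ratios, the authors' deposited table or a 1.5-fold limit, and 1 with median centring or centring on spike-in RNAs. Members higher in E16 numbered 0, and became 1 (Notch1) at 1.5-fold or in the authors' deposited table. Their median of 0.47 became 0.56 at normexp offset 0, 0.52 without background subtraction, 0.63 with Feature Extraction's processed signals, its log ratios or the authors' deposited table, 0.46 with median centring and 0.26 centred on spike-in RNAs, and was 0.50 on either array alone. Other epidermal transcription factors higher in E19 numbered 8, and became 4 with median centring or centring on spike-in RNAs, 7 with the mean over probes, 9 with either output of Feature Extraction, 12 in the authors' deposited table, 13 at 1.5-fold, and 9 to 10 on either array alone. Other Notch pathway genes higher in E16 numbered 2, and became 1 with median centring. Fold limits change counts by construction, and centring on spike-ins lowers the ratios. Calls in the authors' deposited table rest on 1 combined value, and those on either array alone on 1 array. The rule that both arrays pass is thus relaxed there by construction. The cause of the other changes was not tested. Over all genes, 613 were higher in E19 and 554 in E16, against 1014 and 889 with Feature Extraction's processed signals, 1194 and 995 in the deposited table, 367 and 439 with median centring, 1413 and 1138 at 1.5-fold, and 379 and 799 centred on spike-in RNAs. No paired analysis was possible because each stage is 1 pool. Ovol1 had the dimmest signal over background among the members, at 3.19 times.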
